A study of Mus musculus with 3 samples.

Results

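Divergent protein-coding promoters are stretches of DNA from which a pair of protein-coding genes is read outward, one gene on each strand. They were chosen from the GENCODE M21 annotation of mm10 alone: autosomal protein-coding genes on opposite strands that point away from each other, with annotated 5′ ends at most 1 kb apart. Of 20807 autosomal protein-coding genes, 1448 lay in 734 such pairs, and 714 pairs remained when each gene was used once, smallest distance first. Their H3K4me3 peaks are the 718 of 98334 deposited broad intervals (0.73%) and the 727 of 101978 narrow peaks (0.713%) within 1 kb of the stretch between the 5′ ends of any of the 734 pairs. A broad interval is a run of adjoining enriched bins. A narrow peak is a single-base centre with the number of fragments over it in each library. Another 427 pairs whose annotated 5′ ends overlap were not counted as members. They are given as an alternative.

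The study profiled H3K4me3 by ChIP-seq in whole adult testis of (C57BL/6J x CAST/Eij)F1 males of Prdm9 genotype Humanized/CAST, in which one allele codes for the zinc fingers of a human PRDM9 allele and the other is that of CAST. There were 2 ChIP libraries (antibody ab8580) and 1 input library without antibody, all of this 1 genotype, and no other condition. The labels describe the 2 replicates as the testes of a single male, whereas the methods describe littermates, so the replicate spread may be technical. Peaks were called on both replicates jointly, so the tests below take promoters as their units, and no p-value here speaks to how much animals differ. Over all narrow peaks the files hold 17621116 fragments for replicate 1, 19094837 for replicate 2 and 1250138 for the input. Of 10 germ cell marker genes 8 had a broad interval within 1 kb of the 5′ end. The 6 with a narrow peak had 165 to 2006 fragments in replicate 1 and 160 to 2095 in replicate 2. Of 10 marker genes of other tissues 4 had an interval, with 75 to 154 and 67 to 175 fragments. Prm1 and Piwil1 were the germ cell markers without an interval, and Prm2 and Acrv1 had an interval but no narrow peak. Over the promoters compared here 73.8% had an interval, so 8 of 10 is near the background. The fragment ranges overlapped in replicate 2, with 160 at Tnp1 and 175 at Cdx2, so the check is weak.

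Trimethylation of histone H3 lysine 4 is laid down by the SET1 and MLL enzymes at the starts of active or poised genes, most strongly where CpG dinucleotides are dense, and the nucleosomes just downstream of a start carry most of it. In testis PRDM9 places the same mark at sites of meiotic recombination. Divergent gene pairs are common in mammals. Many lie in CpG islands, and genes of DNA repair, of mitochondria and of the core histones are well known among them. At such a promoter the upstream side of one gene is the downstream side of the other.

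The stretch between the 5′ ends had a median length of 127 bp (quartiles 66 and 239, range 1 to 987), and 585 pairs (81.9%) were at most 300 bp apart. A first set of sequences shows textbook pairs short enough to print. They run from one annotated 5′ end to the other on the plus strand of GRCm38.p6, the assembly of mm10, as given by RefSeq, with matches to the motifs described further on in capitals.

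Col4a4/Col4a3, chr1:82586849-82586921: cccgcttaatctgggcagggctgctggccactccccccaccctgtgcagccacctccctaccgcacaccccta
Mrps12/Sars2, chr7:28741820-28741992: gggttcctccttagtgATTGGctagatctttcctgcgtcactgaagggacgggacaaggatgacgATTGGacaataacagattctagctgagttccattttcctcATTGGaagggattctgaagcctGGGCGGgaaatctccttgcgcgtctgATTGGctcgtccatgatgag
Brca1/Nbr1, chr11:101551955-101552149: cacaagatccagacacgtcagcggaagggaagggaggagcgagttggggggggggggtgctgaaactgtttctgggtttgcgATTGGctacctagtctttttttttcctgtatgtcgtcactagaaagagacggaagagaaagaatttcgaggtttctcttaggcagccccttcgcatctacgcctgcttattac

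The capitals mark CCAAT boxes, here read from the other strand, and a GC box, GGGCGG. The stretch of Mrps12/Sars2 held 4 CCAAT matches and 1 GC box, and that of Col4a4/Col4a3 held no match to any motif searched and 2 CpG dinucleotides. A second set was chosen after the values were seen, as the pair with the most fragments whose stretch held an ETS, YY1, TCTCGCGA or NRF1 core, to show these letters in place.

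Cyb5d2/Zzef1 (ETS core CCGGAAGT), chr11:72796142-72796226: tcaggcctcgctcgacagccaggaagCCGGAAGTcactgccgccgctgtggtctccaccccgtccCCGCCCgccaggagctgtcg
Bop1/Hsf1 (YY1 core GCCATCTT), chr15:76477277-76477422: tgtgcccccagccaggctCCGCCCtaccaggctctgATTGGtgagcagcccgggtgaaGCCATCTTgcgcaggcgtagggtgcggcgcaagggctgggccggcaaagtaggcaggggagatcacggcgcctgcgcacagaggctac
Mau2/Sugp1 (TCTCGCGA element), chr8:70042734-70042813: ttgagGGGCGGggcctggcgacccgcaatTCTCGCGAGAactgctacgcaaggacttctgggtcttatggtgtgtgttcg
Srsf7/Ttc39d (NRF1 core GCGCATGC), chr17:80207307-80207460: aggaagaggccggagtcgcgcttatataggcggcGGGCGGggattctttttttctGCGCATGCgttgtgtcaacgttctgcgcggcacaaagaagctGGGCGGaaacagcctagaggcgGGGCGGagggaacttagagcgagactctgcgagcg

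All 4 of these stretches held a GC box as well, and in Mau2/Sugp1 the element is matched on both strands by the same overlapping letters. At Cyb5d2/Zzef1 the peak centre had 2940 (replicate 1), 2830 (replicate 2) and 31 (input) fragments. They were 1875, 2093 and 25 at Bop1/Hsf1, and 2859, 2969 and 33 at Mau2/Sugp1. Srsf7/Ttc39d, which holds the gene of a splicing factor, had 2621, 2819 and 31.

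Nearly every divergent pair was marked. A broad interval lay within 1 kb of 710 of 714 pairs (99.4%, exact 95% binomial interval 98.6 to 99.8%, counting error only). The background over divergent, lncRNA-partnered and single promoters together was 73.8%. Of 15986 single promoters, protein-coding genes with no other protein-coding 5′ end within 5 kb and no divergent lncRNA, 11468 (71.7%, 71.0 to 72.4%) had one. Of 698 coding genes that share their promoter with a divergent lncRNA within 1 kb, 670 (96.0%, 94.3 to 97.3%) did. A pair counted if the interval lay near either gene, whereas a single promoter has only its own 5′ end. The shares are therefore not of like units. The shares differed little among CpG-rich promoters. The CpG ratio, observed over expected CpG within 500 bp of the promoter's centre, had a median of 0.777 at divergent, 0.765 at lncRNA-partnered and 0.481 at single promoters. At a ratio of 0.8 or more, 312 of 312 divergent and 99.9% of 2867 single promoters had an interval. At 0.6 to 0.8 these were 298 of 298 and 99.8% of 3730. Where the ratio was 0.4 to 0.6, 74 of 74 divergent and 96.8% of 2227 single promoters had an interval. Where it was under 0.2, 9 of 12 divergent and 23.4% of 4243 single promoters had one.

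The 4 pairs without an interval had CpG ratios of 0.12 to 0.33. These describe the annotated 5′ ends, which may not be the starts used in testis. Pcdh12/Rnf14 joins a protocadherin gene of the endothelium to a RING finger gene, and its nearest interval lay 4464 bp away. Pecam1/Milr1 pairs the endothelial and platelet adhesion molecule with a mast cell receptor, and its nearest interval lay 24875 bp away. Slc27a5/Trim28, a liver bile acid ligase beside the corepressor of zinc finger proteins, had 922 bp between its annotated ends, and its nearest interval lay 6987 bp away. Gm20075/Gm17190, a pair of predicted genes, had none within 6147 bp. All 4 lacked a narrow peak within 1 kb, as did 9 pairs with an interval. One of these was Peg3/Usp29, an imprinted pair, with an interval of 4300 bp and the nearest narrow peak 1087 bp away. Another was Cdk5/Slc4a2, whose interval was 6500 bp. Narrow-peak centres were kept about 1 kb apart by the authors, and the smallest spacing found was 857 bp.

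The intervals of divergent pairs were wider than those of single promoters. Their median width was 4400 bp (quartiles 3200 and 6300, n = 710), against 2800 bp (1900 and 4500, n = 11468) at single and 4050 bp (2700 and 6000, n = 670) at lncRNA-partnered promoters. The 710 pairs took 709 different intervals, since Bola1/Hist2h2ab and Hist2h2ac/Hist2h2be share one. In a least-squares fit of log2 width with standard errors clustered by the 19 autosomes, divergent intervals were 1.59-fold wider than single ones (log2 difference 0.67, 95% interval 0.61 to 0.73, n = 710 and n = 11468, two-sided p = 1.1e-14, Benjamini-Hochberg adjusted p = 3.4e-14 over 6 comparisons). With GC content and CpG ratio in the fit the log2 difference was 0.46 (0.39 to 0.53). Their own spread was large, with an SD of 0.83 on the log2 scale against 0.96 for lncRNA-partnered and 1.14 for single intervals. The divergent median was the higher one on 19 of 19 autosomes, ranging from 3300 to 5500 bp against 2600 to 3050 bp. Intervals of 3 kb or more made up 79.0% of the divergent, 70% of the lncRNA-partnered and 48.0% of the single set. The background over all 3 classes was 50.9%.

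**Figure D1:**
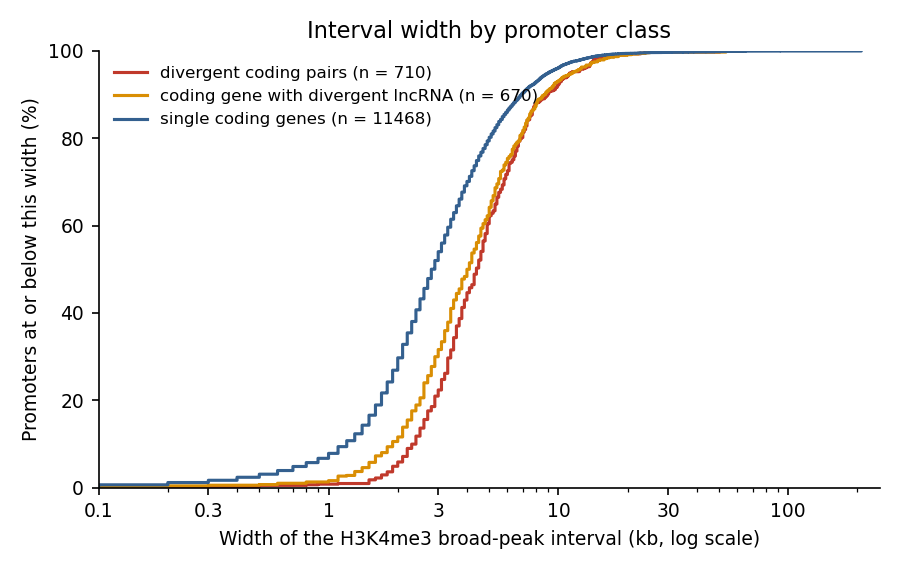
Cumulative share of promoters (vertical axis, percent) at or below each width of the H3K4me3 broad interval (horizontal axis, kb, log scale), for 710 divergent pairs, 670 lncRNA-partnered and 11468 single promoters with an interval. The divergent curve lies to the right of the single curve through its middle (medians 4400 and 2800 bp), the lncRNA-partnered curve runs just left of it (4050 bp), and all 3 run close together above 10 kb.

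A coding partner and a noncoding partner gave nearly the same width. Divergent coding intervals were 1.11-fold wider than lncRNA-partnered ones (log2 difference 0.15, 0.05 to 0.25, n = 710 and n = 670, two-sided p = 0.0073, also 0.0073 after adjustment). With GC and CpG in the fit the log2 difference was 0.10 (-0.02 to 0.22, same n = 710 and n = 670, p = 0.091), so this call was lost. The same fit on promoters with a CpG ratio of at least 0.6 only, chosen after the data were seen, kept it. There the difference was 0.13 (0.04 to 0.22, n = 610 and n = 528, p = 0.0079). The divergent median was the higher one on 14 of 19 autosomes.

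The extra width lay on the side where a single gene has its upstream flank. Both annotated 5′ ends lay inside 1 interval in 697 of 710 pairs (98.2%). Downstream of each of 1401 covered divergent 5′ ends the interval ran on for a median of 2022 bp (quartiles 1324 and 3000). For 10630 single genes this downstream arm was 1856 bp (1213 and 2898). The difference was small (log2 0.14, 0.07 to 0.21, n = 1401 and n = 10630 genes, two-sided p = 0.0007, adjusted p = 0.00084), and with GC and CpG in the fit it was 0.07 (-0.00 to 0.14, p = 0.052). The arms of a pair share an interval and are not independent. Upstream of its 5′ end the interval of a single gene reached 973 bp (604 and 1716), and that of a lncRNA-partnered gene 1696 bp (1112 and 2746). In a divergent pair the other gene's downstream arm and the stretch took this place, together 2216 bp (1490 and 3179).

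**Figure D2:**
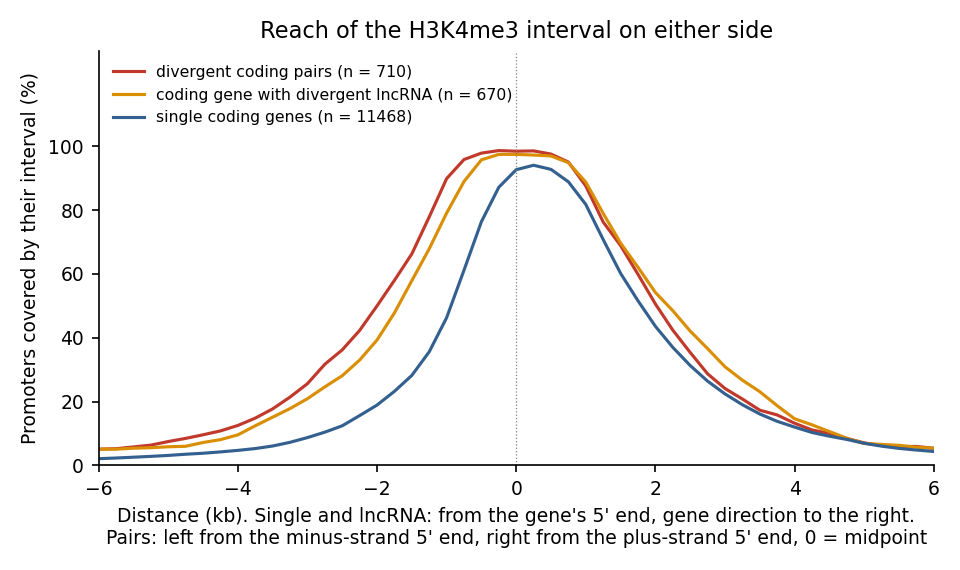
Share of promoters with an interval that is covered by it (vertical axis, percent) at each distance in kb (horizontal axis). Single and lncRNA-partnered genes are aligned at the 5′ end with the gene to the right, and divergent pairs at the minus-strand 5′ end to the left and the plus-strand 5′ end to the right, with the midpoint at 0. At 1 kb in the gene direction coverage was 81.8% at single, 88.8% at lncRNA-partnered and 87.6% at divergent promoters, whereas at 1 kb on the other side it was 46.3%, 79.1% and 89.9%.

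Since pairs are aligned by strand, which has no bearing on the genes, their mean profile is symmetric by construction. At 2 kb to the left 50.0% and at 2 kb to the right 50.6% of the pairs were covered, against 18.9% and 43.6% of single promoters. Within a pair the arms could still be unequal. The longer of the 2 arms had a median of 2528 bp and the shorter 1600 bp, the median ratio was 1.50 (arms under 100 bp set to 100 bp), and 75 pairs (10.8%) had a ratio above 3. The largest difference in bp was at Ostf1/Nmrk1, an osteoclast factor beside a nicotinamide riboside kinase, with 50822 bp on the Ostf1 side and 550 bp on the Nmrk1 side. It was also the widest interval of all members, 51500 bp, with 1281, 1272 and 30 fragments over the peak centre and no further coding 5′ end inside. Next by difference in bp, St13/Xpnpep3, a cochaperone gene beside a mitochondrial aminopeptidase, had arms of 40276 and 10062 bp in an interval of 50400 bp that held 2 further coding 5′ ends. Cyb561d2/Nprl2 had arms of 2792 and 17474 bp, also with 2 further ends.

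Other wide members were Nmur1/Tex44 (24600 bp), Fbxo44/Fbxo2 (23700 bp), 2 F-box genes, and Pcsk4/Reep6 (22800 bp), where Pcsk4 is the proprotein convertase of sperm. Of these, Nmur1/Tex44 had no narrow peak within 1 kb and a CpG ratio of 0.30. Fbxo44/Fbxo2 and Pcsk4/Reep6 each held 1 further coding 5′ end. Over all members 63 intervals (8.87%) held a further coding 5′ end, against 1.44% of single intervals, which were defined as having none within 5 kb of the gene's 5′ end. In an alternative chosen after the data were seen, intervals without such an end gave a log2 width difference of 0.66 (0.58 to 0.73), close to the value with all of them.

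Divergent pairs also had more H3K4me3 fragments over the peak centre, taking the strongest narrow peak within 1 kb. For a pair this is the stronger peak of either gene, whereas a single promoter has only its own gene. The main fits do not allow for this. Only 27 pairs had 2 such peaks to choose from, and 674 had 1. With the nearest peak taken in place of the strongest, the log2 difference from single promoters was 1.46 (1.33 to 1.59), against 1.47. That fit still searched around either gene of a pair, and the part of this wider search was not tested. Of 714 pairs 701 had such a peak. In replicate 1 the lowest of them had 9 fragments, the median 1362 and the highest 7101. The same values were 8, 1473 and 7510 for replicate 2, and 3, 21 and 121 for the input. Single promoters had medians of 584, 638 and 19 (n = 10612), and lncRNA-partnered promoters 1059, 1162 and 21 (n = 653). The upper quartiles were 1819 for divergent and 1319 for single promoters in replicate 1. The lower quartiles lay further apart in proportion, at 911 and 173. Only 13 divergent pairs (1.85%) had under 100 fragments on average, against 4.75% of lncRNA-partnered and 16.9% of single promoters.

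**Figure D3:**
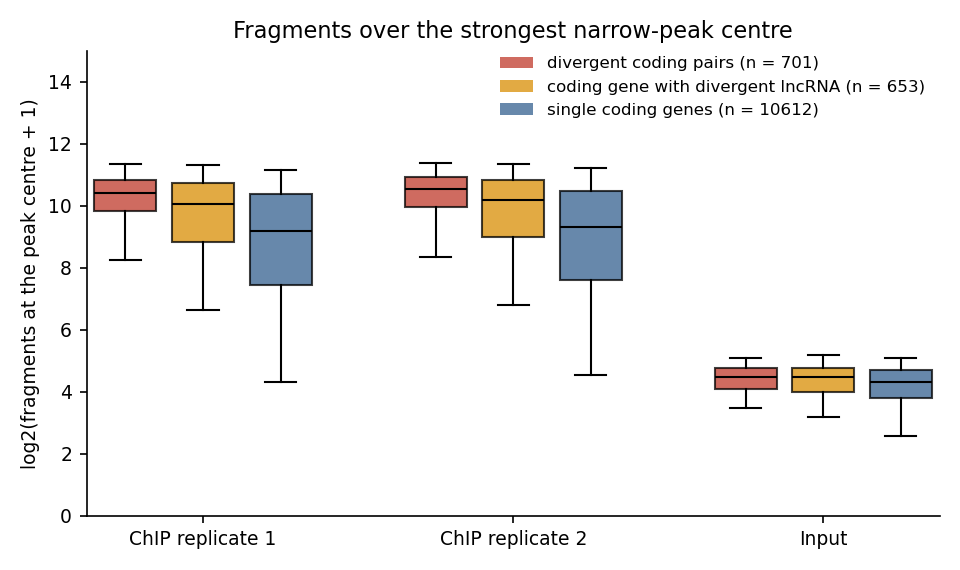
log2(fragments over the strongest narrow-peak centre + 1) (vertical axis) in each library for 701 divergent pairs, 653 lncRNA-partnered and 10612 single promoters. Boxes are quartiles with the median, and whiskers are the 5th and 95th percentiles. Both ChIP replicates show the same order of medians (1362, 1059 and 584 in replicate 1), the single class reaches far lower, and the input boxes lie close together (medians 21, 21 and 19).

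On the log2(fragments + 1) scale, averaged over both replicates, divergent pairs were 2.77-fold higher than single promoters (log2 difference 1.47, 1.35 to 1.59, n = 701 and n = 10612, two-sided p = 2.3e-15, adjusted p = 1.4e-14). With GC and CpG in the fit the log2 difference was 0.65 (0.55 to 0.75), a 1.57-fold difference. The input was also higher at divergent pairs, by 0.20 (0.13 to 0.27, n = 701 and n = 10612, two-sided p = 7.4e-06, adjusted p = 1.1e-05). With GC and CpG in the fit this was -0.03 (-0.07 to 0.02, same n = 701 and n = 10612, p = 0.21). Against lncRNA-partnered promoters the ChIP difference was 0.54 (0.37 to 0.72, n = 701 and n = 653, two-sided p = 4.4e-06, adjusted p = 8.7e-06), and 0.37 (0.23 to 0.51) with GC and CpG in the fit. The spread over divergent pairs was an SD of 1.12 around a mean of 10.22 on this scale. It was larger over lncRNA-partnered (1.50 around 9.68) and single promoters (2.07 around 8.75). The replicate 1 median of divergent pairs lay above that of single promoters on 19 of 19 autosomes and above that of lncRNA-partnered ones on 18.

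Within each class of CpG ratio the divergent medians stood above the single ones, and from a ratio of 0.4 upward above the lncRNA-partnered ones too. At a ratio of 0.8 or more the replicate 1 medians were 1648 at 312 divergent pairs, 1444 at 287 lncRNA-partnered and 1384 at 2867 single promoters. At 0.6 to 0.8 they were 1271, 1041 and 866. At 0.4 to 0.6 the divergent median was 743 against 336 and 275. Widths had this order too from 0.4 upward, with 4700, 4400 and 3600 bp at 0.8 or more. Below 0.2 the 12 divergent pairs were few, weak and wide: the 9 with an interval had a median of 10000 bp, and the median of replicate 1 was 105 fragments. In this class the lncRNA-partnered medians were 6700 bp and 133 fragments, and the single ones 2700 bp and 52. Over the members the CpG ratio and the summed fragments had a Spearman correlation of 0.46 (n = 701), and the CpG ratio and width of 0.13 (n = 710). These are descriptions over promoters from the same libraries.

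**Figure D4:**
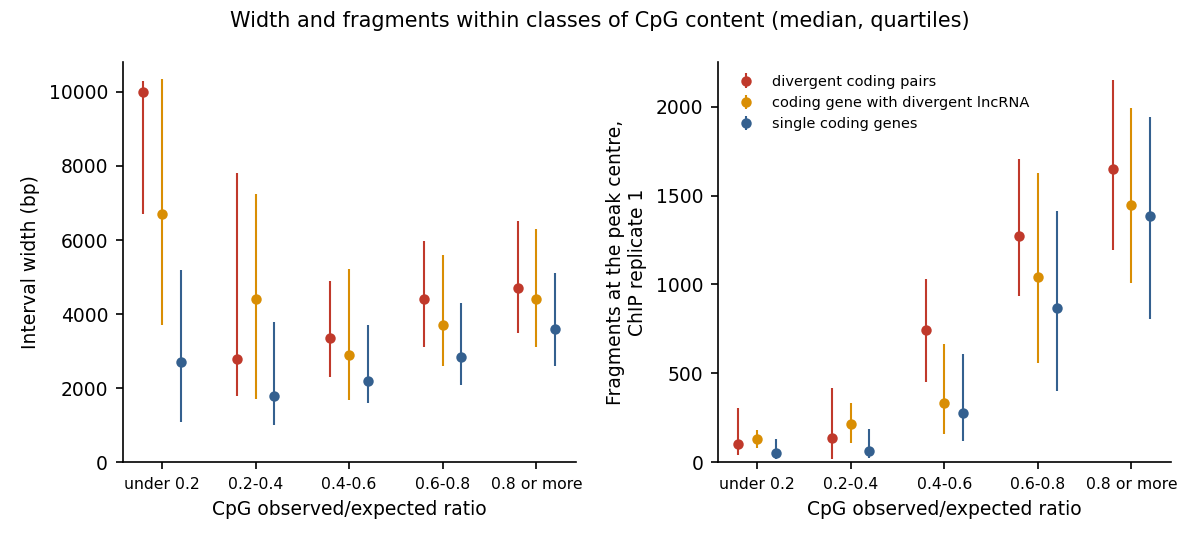
Median and quartiles of interval width in bp (left) and of replicate 1 fragments over the peak centre (right) in 5 classes of CpG observed/expected ratio (horizontal axis) for the 3 promoter classes. From a ratio of 0.4 upward the divergent point lies above the other 2 in both panels, and fragments climb with the ratio in every promoter class; the first 2 classes hold only 12 and 18 divergent pairs.

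The strongest narrow-peak centre was seldom between the genes. It lay inside the stretch in 15 of 701 pairs (2.14%), on the side of the minus-strand gene in 331 and on that of the plus-strand gene in 355. Its median distance into the gene was 228 bp from the nearer 5′ end (quartiles 179 and 306). The stretch is short, with a median of 127 bp, beside the 1 kb searched on either side. A low share inside it therefore says little by itself, and no expected share was worked out. At single promoters the centre lay downstream of the 5′ end in 90.9% of 10612, at a median of 230 bp. In 408 of 675 pairs with unequal arms (60.4%) the centre lay on the side of the longer arm. In 27 pairs there were 2 narrow peaks within 1 kb, 1 on either side of the stretch and at least 1153 bp apart. The spacing of about 1 kb between centres leaves little room for 2 on the same side.

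Fragments were highest where the 5′ ends were closest and lowest where they were farthest apart, with no steady order between. The replicate 1 medians were 1491 at 1 to 50 bp (121 pairs), 1329 at 51 to 100 bp (179 pairs), 1388 at 101 to 200 bp (195 pairs), 1404 at 201 to 300 bp (90 pairs), 1166 at 301 to 500 bp (63 pairs) and 999 at 501 to 1000 bp (66 pairs). In the last class 56.1% of pairs had a CpG ratio of at least 0.6, against 90.1% in the first, and 15 of the 27 pairs with 2 narrow peaks fell there. The part of CpG content in this was not tested. Median widths went from 4100 bp in the first class to 4850 bp at 201 to 300 bp and 3900 bp in the last, with overlapping quartiles. Over all members distance had a Spearman correlation of -0.11 with fragments and 0.06 with width.

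**Figure D5:**
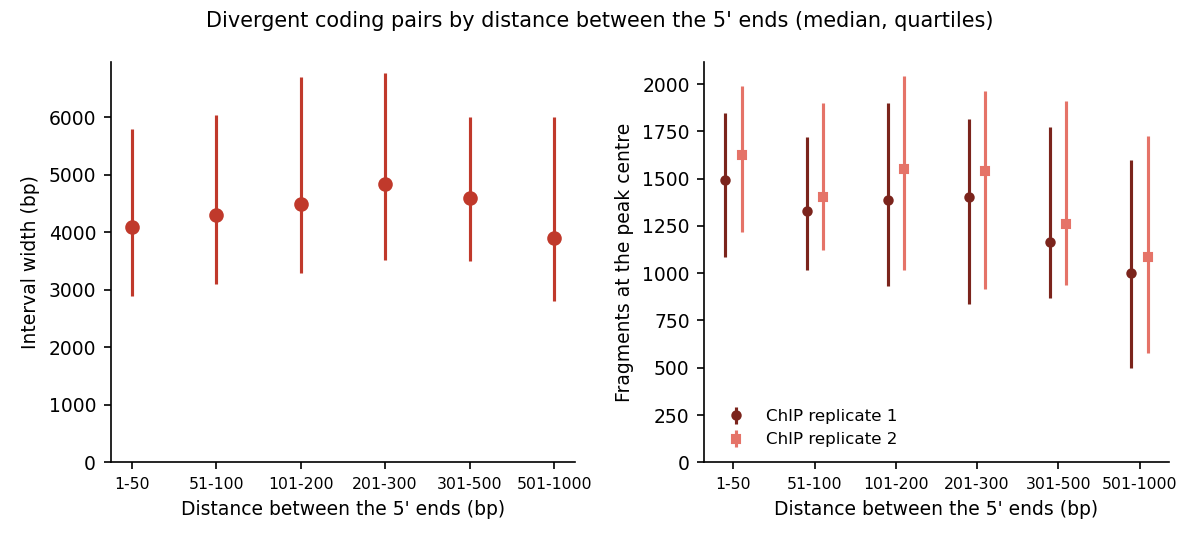
Median and quartiles of interval width in bp (left) and of fragments over the peak centre in both ChIP replicates (right) for divergent pairs in 6 classes of distance between the 5′ ends (horizontal axis, bp). Fragments are lowest in the widest class (medians 999 and 1088), and the quartile bars of all classes overlap.

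The limit of 1 kb was looked at through the pairs nearest to it on either side, which are too few to show whether values change there. Just inside it, Zfyve26/Rad51b (978 bp) had 334 and 418 fragments, Asphd1/Sez6l2 (981 bp) had 213 and 235, and Btf3l4/Txndc12 (987 bp) had 1967 and 2059. Just outside it, Gpr108/Trip10 (1009 bp) had 980 and 1054, Sgsm2/Tsr1 (1011 bp) had 1947 and 1973, and Dirc2/Hspbap1 (1019 bp) had 1457 and 1418. Their intervals were 3100 to 6100 bp wide inside the limit and 4000 to 6100 bp outside it. Of all 363 wider pairs (median distance 3182 bp) 90.6% had an interval. Their medians were 4200 bp, 941 (replicate 1) and 1015 (replicate 2) fragments. The CpG ratio of these wider pairs had a median of 0.203, against 0.777 for the members. It was taken around the centre of the stretch, away from most of their 5′ ends, so the ratios are not of like places.

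All 8 textbook pairs that met the rule had an interval, as did 99.4% of all members. Another 8, Hspd1/Hspe1 among them, have overlapping annotated 5′ ends and are no members. Atm/Npat joins the kinase that signals DNA breaks to the coactivator of histone genes, 307 bp apart on chromosome 9. It had 1882, 2055 and 22 fragments (the ChIP replicates, then input) within an interval of 4800 bp. Brca1/Nbr1, a homologous recombination gene beside an autophagy receptor, had fewer fragments, 887, 1052 and 18, and a wider interval of 8700 bp.

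Pdcd10/Serpini1 had the most fragments of these textbook pairs (2159, 2153 and 13, 3800 bp) and Gart/Son, a purine synthesis enzyme beside a splicing cofactor, 1123, 1389 and 14 in 6600 bp. Mcm4/Prkdc, a replicative helicase subunit beside the catalytic subunit of DNA-PK, had 817, 868 and 29 in 2400 bp. Mrps12/Sars2, both of mitochondrial translation, had 779, 843 and 26 in 3700 bp. Col4a4/Col4a3, basement membrane collagens known from kidney and lung, stood lowest at 162, 160 and 26, with a CpG ratio of 0.46, in an interval of 4800 bp. The replicates differed little from each other in each of these pairs compared with the spread between pairs.

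The 5 pairs with the most fragments began with Hjurp/Trpm8, whose genes are a centromere chaperone and a cold-sensing channel. It had 7101, 7510 and 121, the highest ChIP and the highest input values of all members. This row lay outside any broad interval, and the only interval within 1 kb was 100 bp wide. The other 4 were Ttc9c/Hnrnpul2 (3622, 3399 and 27), Utp18/Mbtd1 (3338, 3236 and 26), Safb2/Safb (3173, 3234 and 33), which are related scaffold attachment factors, and Fam104a/D11Wsu47e (3178, 3196 and 22). Their intervals were 7300 to 12400 bp wide and their CpG ratios 0.80 to 1.09.

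Intervals of 5 pairs touched no region that the authors deposited as PRDM9-independent. That set was built from peaks shared between earlier mice that had no Prdm9 allele in common. The other 705 did (99.3%), against 97.8% of lncRNA-partnered and 90.2% of single intervals. The 5 were Stap2/Mpnd, Ifit1bl2/Ifit1, Kirrel2/Nphs1, Gm12355/Gsdma3 and Nisch/Sema3g. Ifit1 is an interferon-induced gene and Nphs1 codes for nephrin of the kidney filter. They had 9 to 17 fragments in replicate 1 and 8 to 32 in replicate 2, with 4 to 15 in the input. Stap2/Mpnd, with 13, 14 and 15, was not above its input. Their intervals were 300 to 1600 bp wide and their CpG ratios 0.12 to 0.27.

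Gene groups were read from lists chosen with earlier results of these data known, so their values are descriptions beside the member medians of 4400 bp and 1362 (replicate 1) and 1473 (replicate 2) fragments. Of 99 DNA repair genes 28 lay in divergent pairs (1448 of 20807 over all genes), and all 28 pairs had an interval, as did 99.4% of all members. Their median was 3550 bp, 1307 and 1353 fragments, and 14 of the 27 with a narrow peak were below the replicate 1 median of all members. The 46 repair genes at single promoters had medians of 2800 bp, 1107 and 1220 fragments. Their median CpG ratio was 0.769, against 0.816 at the pairs. Polk/Col4a3bp, where Polk is a translesion polymerase, had 3109, 3010 and 29 and Recql/Golt1b, with a RecQ helicase, 2400, 2477 and 26. Both stood above Atm/Npat, the next in this list.

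Of 49 genes of meiotic recombination and synapsis 7 were in divergent pairs, with widths of 1900 to 11200 bp. Trip13/Brd9, where Trip13 is the AAA ATPase that remodels HORMA proteins, had 1790, 1912 and 17 fragments in 3600 bp. Smc1b/Ribc2, where Smc1b is a meiotic cohesin subunit, had 1086, 1196 and 25 in 9900 bp. The median of the 6 pairs with a narrow peak was 871.5 and 957, with 4 below the median of all members, and that of 36 such genes at single promoters was 807 and 835. The widths were 5000 bp at the pairs and 2700 bp at the single genes. Median CpG ratios also differed, 0.814 and 0.624, and their part was not tested.

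Mitochondrial genes had values near those of the members as a whole. Of 78 mitochondrial ribosomal protein genes 18 were in divergent pairs, with medians of 4100 bp, 1218 and 1346 fragments. Ska3/Mrpl57 (2347, 2338 and 27), Mrpl49/Fau (1942, 2088 and 24) and Zfp661/Mrps5 (1839, 1874 and 21) had the most. The 36 at single promoters had a median width of 2250 bp and 1049 and 1163 fragments. Their median CpG ratio was 0.681, against 0.792 at the pairs. Of 44 genes named as subunits or assembly factors of respiratory complex I 12 were in pairs, with medians of 3500 bp, 1264 and 1392. The 20 at single promoters had a median width of 2850 bp and medians of 1360 and 1442 fragments, which are above those of the pairs. Median CpG ratios were 0.711 at these single genes and 0.737 at the pairs. Tepsin/Ndufaf8 (2197, 2282 and 33), Fam126b/Ndufb3 (1910, 2009 and 21) and Ndufa5/Asb15 (1670, 1777 and 28) led this list.

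Clustered histone genes stood lowest. They made up 14 divergent pairs, 13 of them histone with histone, and their median CpG ratio of 0.937 was above that of the members. The 12 pairs with a narrow peak had 113 to 878 fragments in replicate 1 (median 272.5) and 99 to 942 in replicate 2 (median 332.5), all 12 below the member median in both. Their input median of 11.5 was also below the 21 of all members. Widths were near the others, with a median of 4000 bp. The 5 clustered histone genes at single promoters, all with an interval, were low as well. Their medians were 3100 bp, 219 and 199 fragments, at a median CpG ratio of 0.794. Hist1h2ba/Hist1h2aa, the testis variants of H2B and H2A, had the most, 878, 942 and 14, in 6500 bp. The shared row of Bola1/Hist2h2ab and Hist2h2ac/Hist2h2be had 781, 813 and 8. Copies of these genes are nearly identical, and the authors removed read pairs in which both reads had mapping quality 0, so their fragment counts are uncertain.

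The motifs were searched on both strands in the 250 bases before and 50 after the 5′ end of each gene. Windows of close partners overlap, so a match can count for both genes. In most pairs the partner's 5′ end also lies within these 250 bases (upper quartile of the distance 239 bp). A divergent window then holds sequence of both promoters, a single window of its own gene only. The shares were not corrected for this. To hold CpG content near, only promoters with a CpG ratio of at least 0.6 are compared here, 1220 divergent and 6597 single genes. CCGGAAGT, the core bound by ETS factors such as GABPA, was in 13.8% of the divergent and 7.05% of the single windows. AAGATGGC, the YY1 core, was in 8.85% and 3.70%, and TCTCGCGA in 5.33% and 2.15%. CCAAT, bound by NF-Y, was in 43.9% and 36.7%, and GCATGCGC, the NRF1 core, in 7.79% and 5.88%. TGACGTCA, the CRE, was in 5.25% and 3.90%. GGGCGG, the GC box of SP factors, was about as common in both, 72.0% and 71.4%. TATAAA was rarer at the divergent genes, 4.10% against 6.72%. Over all 20807 genes the ETS, YY1, TCTCGCGA and TATA shares were 4.80%, 2.93%, 1.35% and 12.7%. No test was made of these shares.

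Among the members, pairs with TCTCGCGA in either window (39 pairs) had medians of 1743 and 1851 fragments, against 1328 and 1448 without it, with input medians of 24 and 21. For the YY1 core (73 pairs) they were 1538 and 1678 against 1322 and 1442. The ETS core (109 pairs) gave 1484 and 1678 against 1306 and 1402, with narrower intervals (4000 against 4500 bp). Pairs with a CCAAT box (356 pairs) had fewer, 1278 and 1374 against 1428 and 1563, as did those with the NRF1 core (56 pairs), 1244 and 1368 against 1367 and 1477. The GC box (545 pairs) gave 1374 and 1497 against 1264 and 1337, and the CRE (35 pairs) 1382 and 1481 against 1362 and 1472. Pairs with TATAAA (40 pairs) had 866 and 941.5 against 1372 and 1483, with input medians of 16 and 21. A match describes letters in a window and no bound factor.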

How the data were processed

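H3K4me3 ChIP (2 libraries) and input (1 library) from whole testis of 1 genotype were analysed. Read pairs were mapped by the authors with BWA, then Stampy (mm10), and filtered for improper pairs, duplicates and ambiguous placement. Their likelihood ratio caller took both ChIP replicates together, with the input as background. The fragment counts deposited by the authors are whole, unnormalized counts per library over each narrow-peak centre. The authors also deposited, per narrow peak, an enrichment ratio over background and a p-value (largest 9.59e-07), used here only to describe rows and for a stricter limit. Broad intervals and PRDM9-independent regions were deposited as positions, and intervals are multiples of 100 bp. The submitters' notes name BWA, SAMtools, bedtools and mm10. Lengths of GRCm38.p6 chromosomes held every autosomal peak.

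From these files each promoter took the broad interval nearest to the stretch within 1 kb and the narrow peak with the most fragments. A gene's 5′ end is the outermost annotated start, which may not be the start used in testis. Log2 width, log2(fragments + 1) and log2 arm length were fitted by least squares with a term for promoter class and standard errors clustered by autosome (statsmodels 0.14.6, numpy 2.4.6, pandas 2.3.3, scipy 1.17.1, matplotlib 3.10.9, Python 3.11.15). The fit and the pairing were tested on simulated data. Counting limits the precision of rows with few fragments, and no scaling between libraries was needed because classes were compared within libraries. Alternatives were other distances, a stricter p, other controls, GC and CpG terms, another pseudocount and each replicate alone.

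The members, gene lists and tests were chosen with earlier results of these data known. Pairs named are textbook pairs, the 5 with the most fragments, the 5 widest, those without an interval, those nearest to the distance limit, the 3 highest of each list, the 3 whose arms differ most in bp and those outside PRDM9-independent regions. Of the pairs this rule names, 1 is not reported here. Sex chromosomes and coding genes in none of these classes (2695, which include the overlapping and wider pairs) were not compared in the main fits.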

Additional observations from a re-analysis of the deposited data

How the results depend on the processing

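The wider intervals and higher fragments of divergent pairs against single promoters kept their direction and passed the test under every alternative run. The log2 width difference of 0.67 ranged from 0.43 to 0.72 and the fragment difference of 1.47 from 0.60 to 1.54, lowest where only promoters with a CpG ratio of at least 0.6 were compared, which was chosen after the data were seen. Leaving out 1 replicate gave 1.46 to 1.48 against single and 0.53 to 0.55 against lncRNA-partnered promoters. Adding the pairs with overlapping 5′ ends, also chosen later, gave 0.63 for width and 1.44 for fragments. Smaller results depended on the setting, and the cause was not tested. The input difference of 0.20 turned to -0.03 with GC and CpG in the fit and to -0.04 among CpG-rich promoters. The downstream arm difference of 0.14 was 0.07 with GC and CpG in the fit and 0.05 in PRDM9-independent intervals, without passing the test. The width difference from lncRNA-partnered promoters, 0.15, was 0.10 with GC and CpG in the fit, without passing the test. In the other settings it was 0.12 to 0.17 and passed. The share with an interval was 98.6% where direct overlap was required. No paired analysis was possible because only the ChIP group has numbered replicates. All members come from 1 genotype and at most 2 animals, so nothing here bears on other genotypes.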
